A study of Mus musculus with 12 samples.

Results

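Heat shock proteins are molecular chaperones, and co-chaperones are the partners that deliver substrates to them or control their ATP cycle. The genes described here are the 78 of 23306 gene symbols in the deposited table whose name begins with Hspa, Hspb, Hspd, Hspe, Hsph or Hsp90, with Dnaja, Dnajb or Dnajc, or is Bag1 to Bag6. They were sorted by known role into 10 inducible members, 19 constitutive members of the cytosol and nucleus, 10 of the endoplasmic reticulum (ER), 8 of mitochondria, 3 of vesicle traffic, 9 chiefly known from testis, 5 further small heat shock proteins and 14 others. All 78 had at least 1 read. A minimum on low counts left 68 of them among the 14792 genes tested.

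The study sorted thymic stromal cells of a C57BL/6 reporter strain, in which tomato fluorescence reports Kit ligand (Kitl, a growth factor of T-cell progenitors), and its title names endothelium and epithelium as joint sources of the factor. All cells were lineage-negative and excluded DAPI, a dye that enters dead cells. Vascular endothelial cells (VEC) were CD31+ and EpCAM-, and were split by the reporter into tomato+ VEC and tomato- VEC. Epithelial cells were EpCAM+ and CD31-. The cortical epithelial cells (cTEC) were Ly51+, UEA1- and tomato+, and the medullary epithelial cells (mTEC) were UEA1+, Ly51- and tomato-. Between the epithelial groups, reporter status and cortical or medullary origin therefore cannot be told apart. The labels do not give age or sex, nor whether the 3 libraries of a group came from separate mice, so the p-values rest on library-to-library spread alone, and that spread may be technical.

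Proteotoxic stress frees heat shock factors such as HSF1, which bind heat shock elements in promoters and raise the inducible chaperones, among them Hspa1a and Hspa1b (inducible Hsp70), Hsp90aa1 and the small heat shock proteins. The constitutive relatives Hspa8 and Hsp90ab1 carry the daily load of protein folding. In the ER, the Hsp70 family member BiP (Hspa5) and the Hsp90 family member GRP94 (Hsp90b1) serve secreted and membrane proteins, and the unfolded protein response raises them through ER stress elements. J-domain proteins (Dnaj genes) hand substrates to Hsp70, and BAG proteins release them from it.

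Promoter windows from RefSeq (GRCm38.p6, 250 bases before to 50 bases after a transcription start) were found for 63 of the 78 members. They show which members carry the letters of the stress elements known from inducible and from ER chaperones. A heat shock element of 2 units was searched as GAANNTTC or TTCNNGAA on both strands, and one of 3 units as GAANNTTCNNGAA or TTCNNGAANNTTC, which contains the shorter form. The 2-unit form was in 15.1% of all 32851 windows and in the windows of 8 of 9 inducible members (Bag3, Dnaja1, Dnajb4, Hspa1a, Hspa1b, Hspb1, Hspb8 and Hsph1, not Dnajb1). Hspa1a is shown because it was called between the VEC populations, Hspa1b as its near-identical neighbour, and Hspb1 because its tomato+ VEC libraries lay above all others, though neither of the latter was called there. Hspb8 was also called, but its match lies after the transcription start and is not printed. The capitals mark the 2-unit element. The Hsp70 stretches cover positions -144 to -57 from the transcription start, and that of Hspb1 -157 to -50.
Hspa1a (chr17:34972213-34972300, minus strand): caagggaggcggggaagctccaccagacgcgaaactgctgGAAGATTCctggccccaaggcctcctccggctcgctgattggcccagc
Hspa1b (chr17:34959295-34959382, minus strand): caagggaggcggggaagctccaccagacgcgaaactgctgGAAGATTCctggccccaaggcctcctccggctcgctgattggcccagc
Hspb1 (chr5:135887762-135887869, plus strand): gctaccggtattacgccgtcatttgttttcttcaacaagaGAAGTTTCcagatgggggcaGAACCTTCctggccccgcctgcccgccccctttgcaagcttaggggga
The printed stretches of Hspa1a and Hspa1b were identical, and 247 of the 250 bases before their starts were equal (98.8%). The 3-unit element was in 0.603% of all windows and in those of Hsph1, Hspd1, Hspe1 and Dnajb6. The matches of Hspd1 and Hspe1 are the same bases, which lie in both windows.

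The ER stress element was searched as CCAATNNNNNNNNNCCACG or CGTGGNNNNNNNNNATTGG. It was in 0.119% of all windows and in those of 3 of 9 ER members, Hspa5, Hsp90b1 and Dnajc3, and in no other member with a window. The Hspa5 match lies in an annotated exon, so only the element is printed. The capitals mark the element.
Hspa5 (chr2:34772025-34772043, plus strand): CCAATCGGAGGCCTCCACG
Hsp90b1 (chr10:86705510-86705694, minus strand): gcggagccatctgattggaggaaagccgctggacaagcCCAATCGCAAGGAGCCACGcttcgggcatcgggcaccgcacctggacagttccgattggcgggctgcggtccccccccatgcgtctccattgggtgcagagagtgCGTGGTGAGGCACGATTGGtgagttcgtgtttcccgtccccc
Dnajc3 (chr14:118937787-118937885, plus strand): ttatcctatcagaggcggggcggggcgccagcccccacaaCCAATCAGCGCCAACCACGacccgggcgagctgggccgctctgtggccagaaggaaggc
These 3 members did not share a pattern in the libraries. Hspa5 and Hsp90b1 were highest in mTEC and Dnajc3 was lowest there. A match is a run of letters, not a shown binding site.

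Total counts per library ranged from 8388869 to 11807130. Levels of different genes are compared in deposited RPKM, read counts scaled by gene length and library total. The endothelial markers Pecam1, Cdh5, Kdr, Tek, Emcn and Tie1 summed to 2412 to 3342 RPKM in the VEC libraries. In the epithelial libraries they summed to 3.46 to 13.7 RPKM in mTEC and to 3.76, 122 and 0.717 RPKM in cTEC replicates 1 to 3, so cTEC replicate 2 stands apart. Epcam was 139, 134 and 112 RPKM in cTEC and 177, 183 and 179 RPKM in mTEC, and at most 0.0966 RPKM in VEC. Kitl itself averaged 173 ± 72.6 RPKM in tomato+ VEC, 76.0 ± 8.78 RPKM in tomato- VEC, 45.1 ± 6.75 RPKM in cTEC and 4.30 ± 3.14 RPKM in mTEC (SD, n = 3). The 8 mural cell and fibroblast markers summed to 6.08 to 24.5 RPKM in VEC, 1060.3 to 1309.8 RPKM in cTEC, where Dcn made up most of the sum and Des was at 0 in replicates 1 and 3, and 395 to 499 RPKM in mTEC. The 8 thymocyte markers summed to 1.06 to 13.8 RPKM in VEC, 41.3 to 79.4 in cTEC and 10.8 to 22.1 in mTEC, and Cd3e and Cd8a were at 0 in every VEC library. The 5 myeloid markers summed to 5.81 to 59.3 RPKM in VEC, 7.88 to 163 in cTEC and 326 to 405 in mTEC, there mostly Lyz2, with Emr1 at 0 in every VEC library. The 5 erythroid and platelet markers summed to 194, 0.890 and 0.765 RPKM in tomato- VEC replicates 1 to 3, so replicate 1 stands apart. They summed to 1.99 to 11.1 RPKM in tomato+ VEC, 0.0552 to 1.19 in cTEC and 35.6 to 71.5 in mTEC. The 5 cortical markers summed to 226 to 321 RPKM in tomato+ VEC and 20.9 to 21.4 RPKM in tomato- VEC, mostly Cxcl12. Within VEC, the medullary list summed to 2.89 to 17.9 RPKM in tomato+ and 102 to 313 RPKM in tomato- libraries, in the latter nearly all Ccl21a, while the pan-epithelial list stayed at 0.319 to 0.739 RPKM. The part of these markers in the differences below was not tested.

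The summed RPKM of all 78 members was lowest in endothelium. It averaged 3082 ± 189.8 RPKM in tomato+ VEC and 3109.6 ± 245 RPKM in tomato- VEC, against 4132 ± 99.2 RPKM in cTEC and 5129 ± 378 RPKM in mTEC (SD, n = 3). Every epithelial library lay above every endothelial library, and every mTEC library above every cTEC library. The 4 most abundant members were Hsp90ab1 (670.0 RPKM over all libraries), Hspa8 (524 RPKM), Hsp90b1 (416 RPKM) and Hspa5 (392 RPKM), which are the constitutive and ER forms of Hsp90 and Hsp70.

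The classes were ordered differently over the 4 populations. The inducible members summed to 734 ± 86.0 RPKM in cTEC, 540.3 ± 157 RPKM in tomato+ VEC, 443 ± 48.1 RPKM in mTEC and 361 ± 55.3 RPKM in tomato- VEC. The sum of the constitutive cytosolic and nuclear members was highest in mTEC (2150.5 ± 225 RPKM) and averaged 1368 to 1593 RPKM in the other populations. Most of it was Hsp90ab1 (908 RPKM in mTEC) and Hspa8 (779 RPKM in mTEC). Of these 19 members, 8 had a positive log2 difference of cTEC against mTEC, with a median of -0.10. ER members averaged 639 ± 50.1 RPKM in tomato+ VEC, 886 ± 146 RPKM in tomato- VEC, 926 ± 76.0 RPKM in cTEC and 1435 ± 24.7 RPKM in mTEC. Mitochondrial members followed the same order, from 180.2 ± 30.2 to 265 ± 11.0, 427 ± 20.0 and 541 ± 47.9 RPKM. The order of tomato- VEC and cTEC in the ER sum lies within their SDs, while the mitochondrial sums of the 4 populations did not overlap between libraries. Most of the ER sum was Hspa5 (628 RPKM in mTEC) and Hsp90b1 (679 RPKM in mTEC), so its order is mainly theirs. Dnajb9, Dnajc1, Dnajc3 and Hspa13 had their lowest mean in mTEC and Dnajb14 its highest. Dnajb11, Dnajb12 and Dnajc10 had neither there. These sums are descriptions, with no test.

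**Figure D1:**
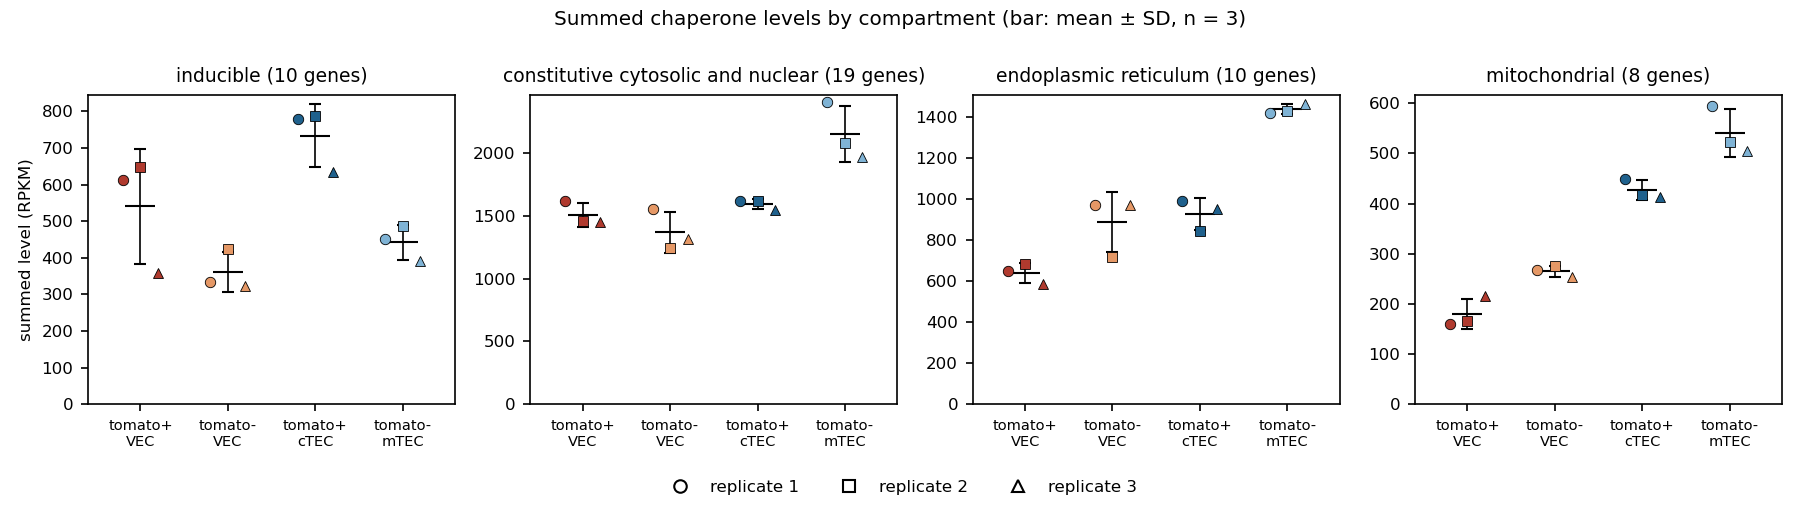
Summed RPKM of 4 classes of chaperones in each of the 12 libraries. Points are libraries, and the horizontal mark and bar are the mean and SD of the 3 libraries of a group. The inducible sum has its highest mean in cTEC (634 to 788 RPKM in its libraries) and spreads widely in tomato+ VEC. The ER sum, mostly Hspa5 and Hsp90b1, and the mitochondrial sum are highest in mTEC. The constitutive sum is mostly Hsp90ab1 and Hspa8.

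Between tomato+ and tomato- VEC, 2 of the 68 tested members were called at an adjusted p under 0.05 by the edgeR quasi-likelihood test (2.94%, against 1.65% of all genes tested). Hspa1a, inducible Hsp70, was higher in tomato+ VEC (1 of 68, against 0.568% of all genes higher), and Hspb8, a small heat shock protein that works with Bag3 in autophagy of misfolded proteins, was lower (1 of 68, against 1.08% lower). The median log2 difference of the tested members was -0.11, against 0 over all genes. In bulk libraries, fewer cells of a kind and less RNA per cell cannot be told apart.

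Hspa1a was 52.0, 88.0 and 7.00 RPKM in tomato+ VEC replicates 1 to 3 and 3.71, 3.81 and 0.904 RPKM in tomato- VEC. It was 61.6, 54.9 and 22.4 RPKM in cTEC and 16.2, 32.0 and 19.0 RPKM in mTEC. Tomato- VEC were thus the low population, and the tomato+ VEC libraries spread widely, with replicate 3 just above the tomato- VEC range. The log2 difference between tomato+ and tomato- VEC was 4.17 ± 0.86 (SE, adjusted p = 0.0323), 18.0-fold. Between cTEC and mTEC, where the libraries overlapped, it was 0.96 ± 0.76 (adjusted p = 0.574). The difference between those reporter contrasts was 3.21 ± 1.09 and missed the threshold (adjusted p = 0.137). The call in VEC was lost without tomato+ VEC replicate 1 or 2 or any 1 of the 3 tomato- VEC libraries (adjusted p 0.0554 to 0.0794), with limma voom (0.281) and with the 6 VEC libraries alone (0.110), and the direction held in each.

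Hspa1b, the near-identical neighbour of Hspa1a, had the same profile at lower levels. It was 23.9, 46.8 and 4.20 RPKM in tomato+ VEC, 1.01, 4.96 and 0.783 RPKM in tomato- VEC, 41.0, 40.3 and 10.2 RPKM in cTEC and 11.5, 23.4 and 12.4 RPKM in mTEC. Tomato+ VEC replicate 3 fell below tomato- VEC replicate 2, so the VEC groups overlapped, and the log2 difference of 3.52 ± 0.96 missed the threshold (adjusted p = 0.0900). It passed with DESeq2 (adjusted p = 0.00169), with the replicate number as a block (0.0325), without tomato+ VEC replicate 3 (0.0332) and without tomato- VEC replicate 2 (0.0495). The sources do not say how reads that match both genes were counted, so the split of reads between the pair is uncertain.

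Hspb8 was 0.0512, 0 and 1.72 RPKM in tomato+ VEC, which is 1, 0 and 32 reads, and 16.4, 43.7 and 27.4 RPKM in tomato- VEC. It was 54.6, 59.5 and 65.9 RPKM in cTEC and 18.6, 21.6 and 18.4 RPKM in mTEC. Tomato+ VEC were the population with almost none, and every library of the other populations held at least 16.4 RPKM. The log2 difference between tomato+ and tomato- VEC was -5.54 ± 1.12 (adjusted p = 0.0288). The call was lost without tomato+ VEC replicate 1, tomato- VEC replicate 2, cTEC replicate 1 or 3, or mTEC replicate 2 (adjusted p 0.0513 to 0.0676) and with the 6 VEC libraries alone (0.190). The cTEC libraries all lay above the mTEC libraries (log2 difference 1.54 ± 0.92), but this missed the threshold (adjusted p = 0.406), and passed with limma voom (0.0445), on log2(RPKM + 1) (0.0265) and with the 6 epithelial libraries alone (0.00327).

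Hspb1, the small heat shock protein that binds misfolded proteins and actin, was the most abundant small heat shock gene in endothelium. It was 201, 176 and 103 RPKM in tomato+ VEC, 28.7, 91.6 and 30.4 RPKM in tomato- VEC, 54.6, 63.1 and 8.47 RPKM in cTEC and 37.1, 38.4 and 27.7 RPKM in mTEC. Every tomato+ VEC library lay above every other library, while cTEC replicate 3 was the lowest of all. The log2 difference of 1.73 ± 0.66 between tomato+ and tomato- VEC missed the threshold (adjusted p = 0.215). Hspb1 and Hspb8 thus had opposite orders in VEC, with Hspb1 highest and Hspb8 lowest in the tomato+ libraries.

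Hspa1a was lowest in replicate 3 of both tomato+ populations, and the other inducible members differed in whether they followed. Bag3, the co-chaperone that links Hsp70 to small heat shock proteins, was 60.4, 57.4 and 12.3 RPKM in tomato+ VEC and 23.7, 33.3 and 16.6 RPKM in cTEC, lowest in replicate 3 of each. Hsph1, a nucleotide exchange factor of Hsp70, was 9.68, 15 and 2.35 RPKM in tomato+ VEC and 43.7, 22.4 and 13.6 RPKM in cTEC, again lowest in replicate 3. In those replicates Dnajb4 and Hspb8 were the highest of their group, and in tomato- VEC and mTEC Hsph1 was highest in the replicate with the lowest Hspa1a. The inducible Hsp70 pair together came to 22.7, 25.2 and 2.41% of the constitutive Hspa8 in tomato+ VEC, 0.924, 2.65 and 0.360% in tomato- VEC, 23.4, 21.5 and 7.52% in cTEC and 3.08, 7.42 and 4.54% in mTEC. The 12 immediate early genes, which cells switch on rapidly when stimulated, summed to 7549, 7501 and 4941 RPKM in tomato+ VEC, 6650.4, 5822 and 4833 RPKM in tomato- VEC, 4892, 4678 and 4074 RPKM in cTEC and 1917, 2485 and 3145 RPKM in mTEC. Replicate 3 had the lowest such sum in both tomato+ populations, and also in tomato- VEC. The part of this variation between replicates in the differences of the inducible members was not tested.

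**Figure D2:**
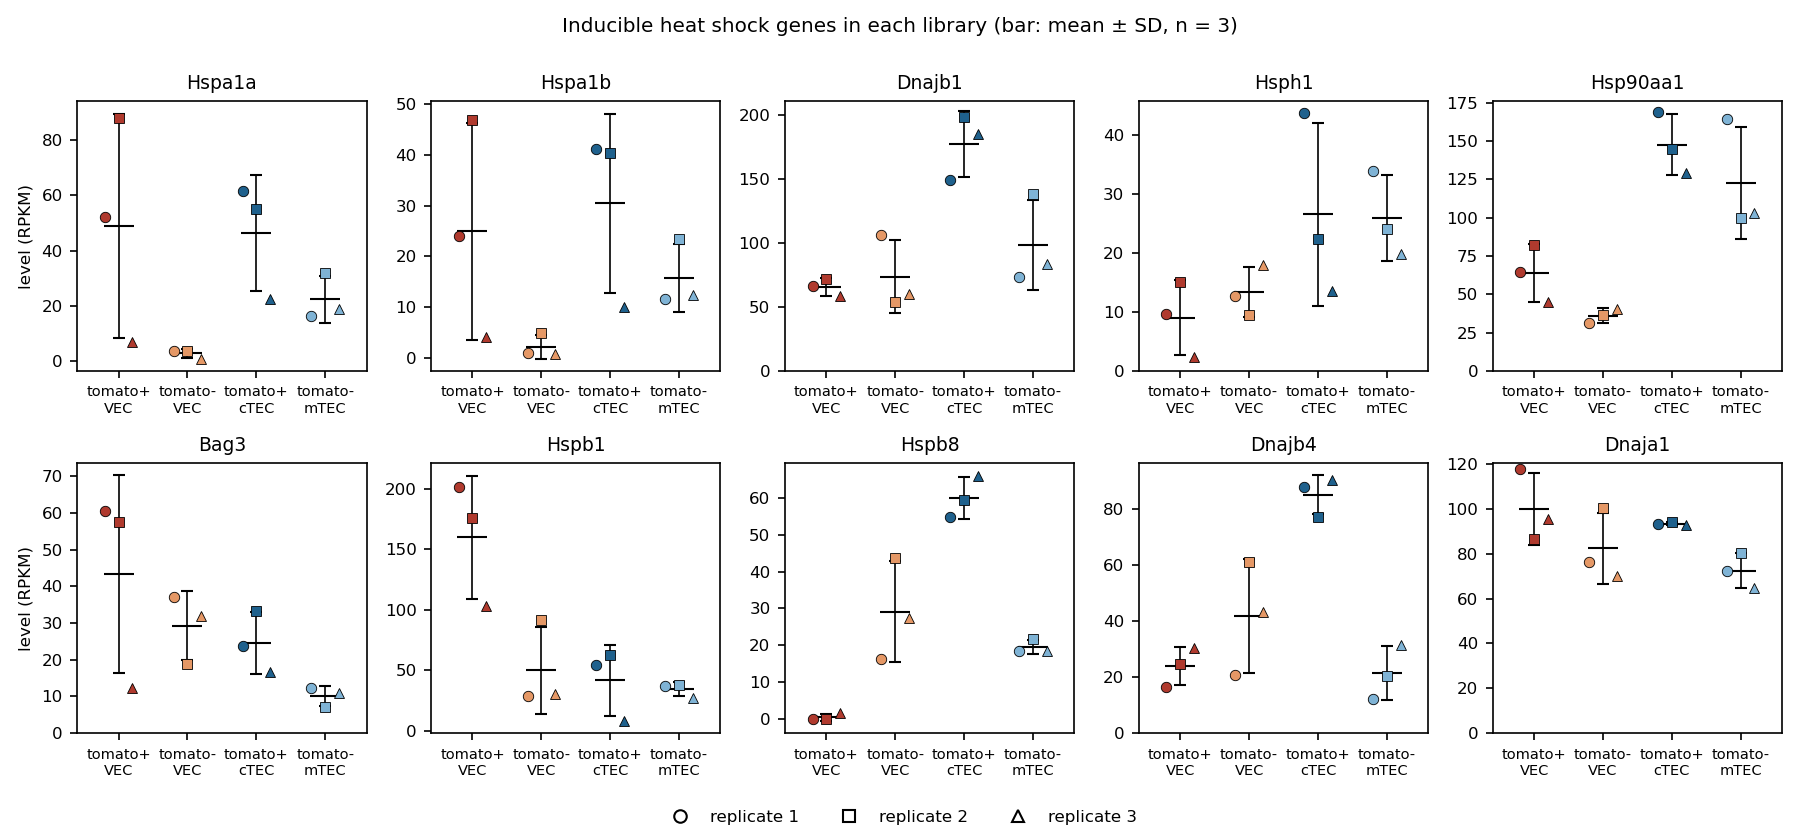
RPKM of the 10 inducible members in each library on linear axes that differ between panels. Points are libraries, and the mark and bar are the mean and SD of 3. Hspa1a and Hspa1b are low in tomato- VEC and spread widely in tomato+ VEC, Hspb8 is near 0 in tomato+ VEC alone, and Dnajb4 is highest in cTEC.

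Hsp90aa1, the inducible Hsp90, was 64.6, 82.3 and 44.9 RPKM in tomato+ VEC, 31.4, 36.5 and 40.6 RPKM in tomato- VEC, 169, 145 and 129 RPKM in cTEC and 165, 99.8 and 103 RPKM in mTEC. All 6 epithelial libraries exceeded all 6 endothelial libraries, and within VEC the tomato+ libraries exceeded the tomato- ones. The log2 difference of VEC against epithelium was -1.26 ± 0.19 (adjusted p = 2.79e-04), and that of tomato+ against tomato- VEC was 0.89 ± 0.27 (adjusted p = 0.121). The second passed with DESeq2 (adjusted p = 0.0442) and without tomato+ VEC replicate 3 (0.0452). Set against the constitutive Hsp90ab1, Hsp90aa1 came to 9.43, 17.9 and 10.3% in tomato+ VEC, 4.56, 7.45 and 9.24% in tomato- VEC, 22.8, 20.2 and 19.6% in cTEC and 16.7, 11.2 and 12.2% in mTEC. That ratio was highest in the 3 cTEC libraries.

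Between cTEC and mTEC, 5 of the 68 tested members were called (7.35%, against 7.83% of all genes tested), a share near the background. Dnajb4 and Dnajc13 were higher in cTEC (2 of 68, against 2.73% of all genes higher), and Hspa8, Hspa5 and Hsp90b1 were higher in mTEC (3 of 68, against 5.1%). The median log2 difference of the tested members was -0.02, the same size as that of all genes with the opposite sign (0.02).

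Dnajb4, an inducible J-domain partner of Hsp70, was 88.0, 77.2 and 90.5 RPKM in cTEC and 12.2, 20.5 and 31.3 RPKM in mTEC. It was 16.6, 24.8 and 30.3 RPKM in tomato+ VEC and 20.8, 61.3 and 43.2 RPKM in tomato- VEC. The cTEC libraries were the 3 highest of the 12. The log2 difference between cTEC and mTEC was 1.92 ± 0.43 (adjusted p = 0.0202), 3.78-fold. The call held under the 7 other methods and was lost without any 1 cTEC library, or without mTEC replicate 1 or 2 (adjusted p 0.0504 to 0.0774). Dnajb1, the best-known inducible J-domain protein, was 149, 198 and 185 RPKM in cTEC and 73.2, 139 and 83.3 RPKM in mTEC. It missed the threshold there (log2 difference 0.77 ± 0.32, adjusted p = 0.195) and passed with limma voom alone (0.0418).

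Dnajc13, a J-domain protein of endosomes that acts in receptor sorting, was the called member with the largest difference between the epithelial populations. It was 101, 144 and 184 RPKM in cTEC and 5.41, 6.07 and 9.68 RPKM in mTEC. In endothelium it was 6.18, 2.72 and 11.9 RPKM in tomato+ VEC and 8.00, 10.9 and 6.14 RPKM in tomato- VEC. Expression stood out in cTEC, and the other populations overlapped. The log2 difference between cTEC and mTEC was 4.27 ± 0.52 (adjusted p = 6.22e-04), 19.3-fold, and the call held without each of the 12 libraries and under the 7 other methods. Ccrl1 (also named Ackr4), an atypical chemokine receptor, is the next protein-coding gene downstream on the same strand in the GENCODE annotation of GRCm38. The genes lie 24349 bases apart there. Ccrl1 was 369.6, 404 and 404 RPKM in cTEC, 3.39, 2.37 and 8.59 RPKM in mTEC and at most 25.3 RPKM in VEC, so it was high in the same libraries as Dnajc13. Whether any reads of the one were counted for the other was not tested.

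The 3 members called higher in mTEC, Hspa8, Hsp90b1 and Hspa5, were among the 4 most abundant of the 78. Hspa8, the constitutive Hsp70, was 899, 746 and 692 RPKM in mTEC and 438, 442 and 433 RPKM in cTEC (log2 difference -0.91 ± 0.22, adjusted p = 0.0281). It was 334, 535 and 465 RPKM in tomato+ VEC and 511, 331 and 468 RPKM in tomato- VEC, a range that takes in that of cTEC. The call was lost without any 1 of the 6 epithelial libraries (adjusted p 0.0513 to 0.110) and with the replicate number as a block (0.0526). Hsp90ab1 was also higher in every mTEC library (986, 894 and 845 RPKM) than in every cTEC library (742, 717 and 657 RPKM), but missed the threshold (log2 difference -0.44 ± 0.23, adjusted p = 0.322). It passed with the 6 epithelial libraries alone (0.0394).

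Hspa5 (BiP) was 570.2, 636 and 678 RPKM in mTEC and 369, 286 and 357 RPKM in cTEC. It was 459, 289 and 409 RPKM in tomato- VEC and 209, 257 and 180.4 RPKM in tomato+ VEC. Every mTEC library lay above every other library, and every tomato+ VEC library below every tomato- VEC library. The log2 difference of cTEC against mTEC was -0.97 ± 0.22 (adjusted p = 0.0212), and that of tomato+ against tomato- VEC was -0.78 ± 0.22 (adjusted p = 0.101). The epithelial call was lost without any 1 cTEC library, or without mTEC replicate 2 or 3 (adjusted p 0.0524 to 0.0715), and the VEC difference passed with DESeq2 (0.0377) and on log2(RPKM + 1) (0.0425).

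Hsp90b1 (GRP94), which folds integrins and Toll-like receptors in the ER, followed the order of Hspa5 between the epithelial groups. It was 730.0, 668 and 639 RPKM in mTEC and 455, 399 and 438 RPKM in cTEC, without overlap. In VEC it was 330.1, 259 and 364 RPKM in tomato- and 231, 236 and 248 RPKM in tomato+ libraries, all below the epithelial range. The log2 difference of cTEC against mTEC was -0.73 ± 0.17 (adjusted p = 0.0214), and the call was lost without any 1 cTEC library, or without mTEC replicate 1 or 2 (adjusted p 0.0581 to 0.0900). The 15 other genes of the unfolded protein response had 3 lower in cTEC (Herpud1, Manf and Pdia6, 20% of the list, against 5.1% of all genes tested), and the other 12 missed the threshold. Of the 15, 6 went the other way, among them Xbp1 and Ddit3, each higher in every cTEC than in every mTEC library. Between the lineages, 5 were called higher in VEC (Atf4, Canx, Edem1, Pdia6 and Xbp1, against 14.4% of all genes higher). Herpud1 and Hyou1 were called lower in VEC (2 of 15, against 21.8% lower). Herpud1, a factor of ER-associated degradation, was 224, 268 and 304 RPKM in mTEC and 93.8, 83.1 and 68.2 RPKM in cTEC (log2 difference -1.78 ± 0.28, adjusted p = 0.00349). In VEC, Herpud1 had the opposite order to Hspa5: it was 154, 83.5 and 137 RPKM in tomato+ and 37.2, 61.1 and 60.1 RPKM in tomato- libraries (log2 difference 1.31 ± 0.28, adjusted p = 0.0369), the only 1 of the 15 called there (6.67%, against 0.568% of all genes higher). The list was split in VEC, with 6 of the 15 at a positive log2 difference and a median of -0.19. Xbp1, Calr, Pdia6, Manf and Hyou1 had the order of Hspa5, lower in every tomato+ than in every tomato- VEC library.

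Between endothelium and epithelium, taken as the mean of both VEC groups against the mean of both TEC groups, 23 of 68 tested members were called (33.8%, against 36.3% of all genes tested), a share near the background. Of these, 10 were higher in VEC (against 14.4% of all genes higher) and 13 lower (against 21.8%). The median log2 difference was -0.29 for the members and -0.18 for all genes. Scaling by relative log expression in place of TMM moved the median of all genes by a further -0.13 and gave 9 members higher and 15 lower, and limma on log2(RPKM + 1) gave 6 higher and 22 lower. The shares of all genes called under those settings are not given here.

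By class, the inducible members split, with 2 of 10 higher in VEC (Hspb1 and Bag3) and 3 lower (Hsp90aa1, Dnajb1 and Hspb8). Among the 19 constitutive members, 2 were higher (Bag5 and Dnajc8) and 1 lower (Dnajc9), and among the 10 ER members 3 were higher (Dnajc1, Dnajc3 and Dnajc10) and 2 lower (Hsp90b1 and Hspa5). The mitochondrial members had 3 of 8 lower in VEC. Vesicle members had 2 of 3 lower, and the further small heat shock proteins 2 of the 3 tested lower. These counts come from small classes and stand against 14.4% of all genes higher and 21.8% lower. No class was tested as a set.

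**Figure D3:**
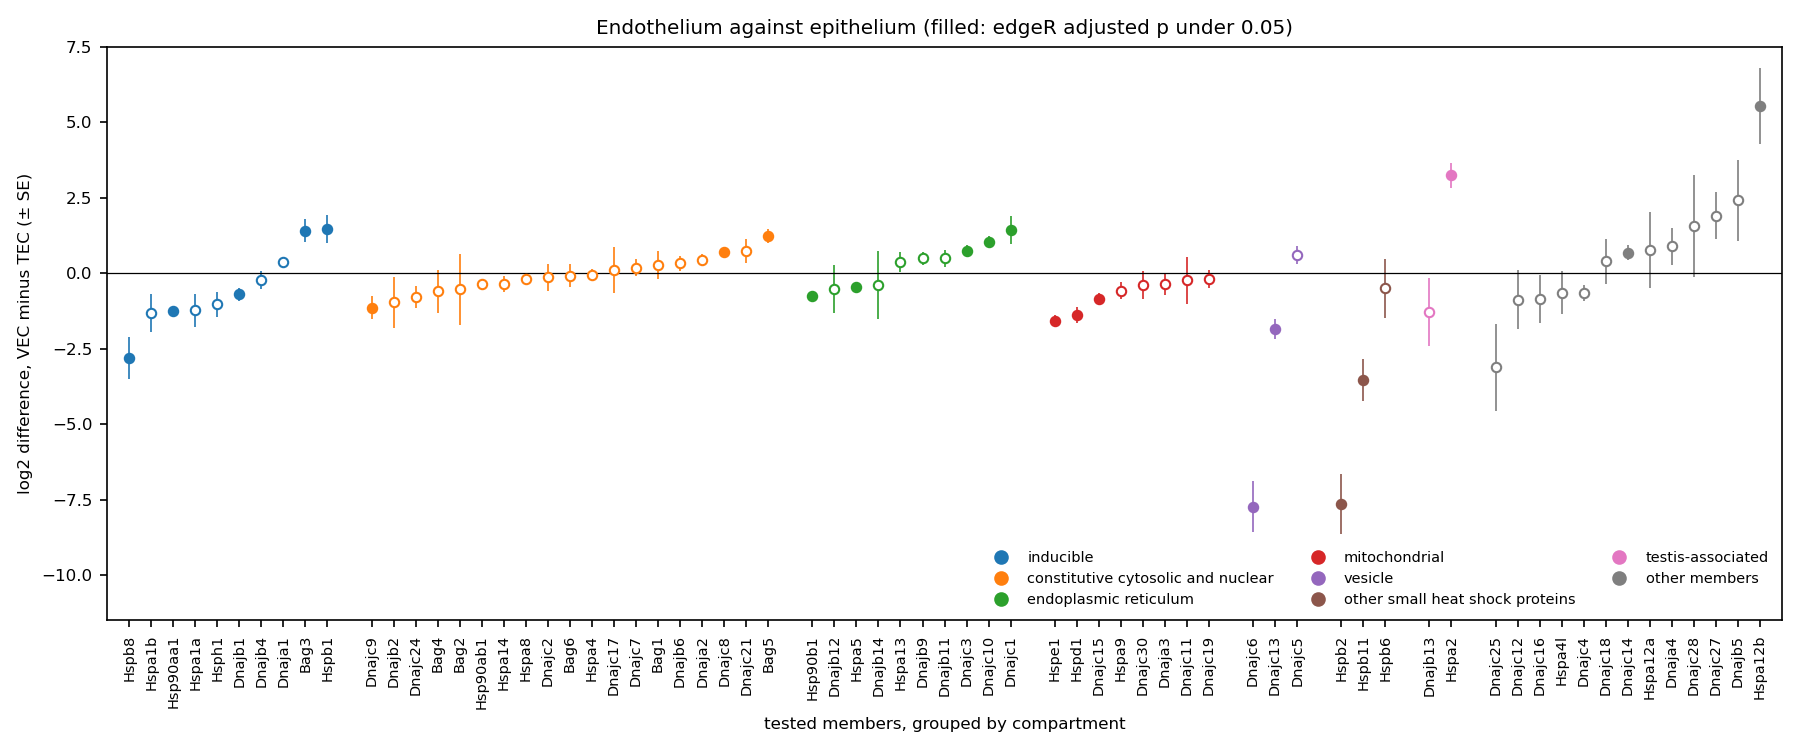
Log2 difference of VEC minus TEC for each of the 68 tested members, grouped by class, with its SE. Filled points were called by edgeR at an adjusted p under 0.05. All 8 mitochondrial members lie below 0, with Hspe1, Hspd1 and Dnajc15 filled, while the median of all genes tested is itself -0.18. The lowest points are Dnajc6 and Hspb2 and the highest is Hspa12b.

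The mitochondrial chaperonin genes were among the most evenly separated members. Hspe1, the lid of the chaperonin, was 25.3, 33.3 and 29.7 RPKM in tomato+ VEC, 57.0, 38.9 and 42.2 RPKM in tomato- VEC, 109, 106 and 112 RPKM in cTEC and 176, 136 and 144 RPKM in mTEC. The libraries of the 4 populations did not overlap, and the log2 difference of VEC against TEC was -1.58 ± 0.21 (adjusted p = 1.04e-04). Hspd1, the chaperonin barrel, was 35.1, 22.9 and 21.0 RPKM in tomato+ VEC, 34.6, 13.2 and 15.5 RPKM in tomato- VEC, 57.4, 51.1 and 56.0 RPKM in cTEC and 101, 97.4 and 87.6 RPKM in mTEC. Its log2 difference was -1.38 ± 0.26 (adjusted p = 0.00141), with the VEC groups overlapping each other but no epithelial library. The genes share a promoter region and 112 bases of annotated exon on opposite strands, so without a stated use of strand some reads could count for either. Overlapping 3-unit heat shock elements lay at -89 to -77 and -84 to -72 from the start of Hspe1. In the window of Hspd1 they lay at -144 to -132 and -139 to -127. These are the same bases of the shared promoter region, read on the opposite strand. The first Hspe1 match read TTCTAGAACCTTC at chr1:55088059-55088071 on the strand of Hspe1. It lies in an annotated exon, so only that match is printed, and the overlapping one runs past its end.

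Dnajc15, a J-domain protein of the mitochondrial inner membrane, was 47.1, 36.4 and 58.8 RPKM in tomato+ VEC, 76.6, 106 and 77.2 RPKM in tomato- VEC, 124, 95.8 and 109.8 RPKM in cTEC and 182, 159 and 156 RPKM in mTEC. Its means had the same order of populations as those of Hspe1, with tomato- VEC replicate 2 inside the cTEC range (log2 difference -0.85 ± 0.21, adjusted p = 0.00787). The other 5 mitochondrial members missed the threshold.

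The members called lower in endothelium included Dnajc6, Hspb2 and Hspb11. Dnajc6 (auxilin), which uncoats clathrin vesicles with Hsp70, was 5.03, 3.23 and 4.13 RPKM in cTEC and 16.3, 8.61 and 10.00 RPKM in mTEC, and 8 reads fell on it in all 6 VEC libraries together. The ratio of epithelium to endothelium in normalised counts was 258-fold, with a 95% counting interval of 131 to 598 that covers counting error only (adjusted p = 1.98e-05). Every mTEC library exceeded every cTEC library, though the log2 difference of -1.56 ± 0.86 missed the threshold (adjusted p = 0.355) and passed with DESeq2 (0.0476), on log2(RPKM + 1) (0.0217) and with the 6 epithelial libraries alone (0.0168).

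Hspb2, a small heat shock protein best known from muscle, was 9.52, 12.6 and 15.7 RPKM in cTEC and 7.15, 6.53 and 10.2 RPKM in mTEC, with 3 reads in all VEC libraries together. The ratio was 146-fold, with a 95% counting interval of 49.6 to 709 (adjusted p = 2.00e-04). Cryab, the small heat shock protein alpha B-crystallin, shares 252 bases of exon with Hspb2 on the opposite strand in the annotation. It was 73.3, 64.1 and 57.2 RPKM in cTEC, 61.5, 66.3 and 49.8 RPKM in mTEC and at most 8.89 RPKM in VEC, so both genes were high in the same libraries. The sources do not state whether strand was used in counting, and without it the reads of the pair cannot be told apart over that stretch.

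Hspb11, a small protein of intraflagellar transport that carries a heat shock name, was the fifth most abundant member overall. It was 438, 281 and 292 RPKM in mTEC, 123, 137 and 157 RPKM in cTEC, 42.7, 24.6 and 19.5 RPKM in tomato- VEC and 0.498, 1.69 and 23.7 RPKM in tomato+ VEC. The epithelial groups overlapped neither each other nor endothelium, and the log2 difference of VEC against TEC was -3.54 ± 0.69 (adjusted p = 0.00172). In tomato+ VEC, replicate 3 stood far above replicates 1 and 2, and without it the difference between tomato+ and tomato- VEC moved from -1.70 ± 0.92 (adjusted p = 0.405) to -4.63 (adjusted p = 0.00295).

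The members highest in endothelium included 2 of the Hsp70 family. Hspa2, a testis-associated Hsp70 that is also made in other tissues, was 70.6, 42.8 and 77.5 RPKM in tomato+ VEC, 27.3, 38.5 and 36.8 RPKM in tomato- VEC, 4.55, 4.43 and 0.773 RPKM in cTEC and 15, 8.92 and 6.83 RPKM in mTEC. The 4 populations did not overlap, and the log2 difference of VEC against TEC was 3.25 ± 0.41 (adjusted p = 6.83e-05), 9.50-fold. Its order within each lineage was opposite, higher in tomato+ than in tomato- VEC (log2 difference 0.96 ± 0.53, adjusted p = 0.411) and lower in cTEC than in mTEC (-1.73 ± 0.55, adjusted p = 0.0790). The difference between the contrasts missed the threshold (adjusted p = 0.0790) and passed with DESeq2 (0.00960) and on log2(RPKM + 1) (0.0375).

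Hspa12b, a distant Hsp70 relative known from endothelium and vessel growth, was 16.3, 10.7 and 26.0 RPKM in tomato+ VEC and 5.01, 11.8 and 4.48 RPKM in tomato- VEC. It was 0.0704, 0 and 0.173 RPKM in mTEC and 0, 2.71 and 0 RPKM in cTEC. Its epithelial reads were almost all from cTEC replicate 2 (73 reads), the library in which Pecam1 was 36.5 and Emcn 59.2 RPKM. The log2 difference of VEC against TEC was 5.54 ± 1.26 (adjusted p = 0.00451), and 9.33 without that library (adjusted p = 6.63e-05).

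**Figure D4:**
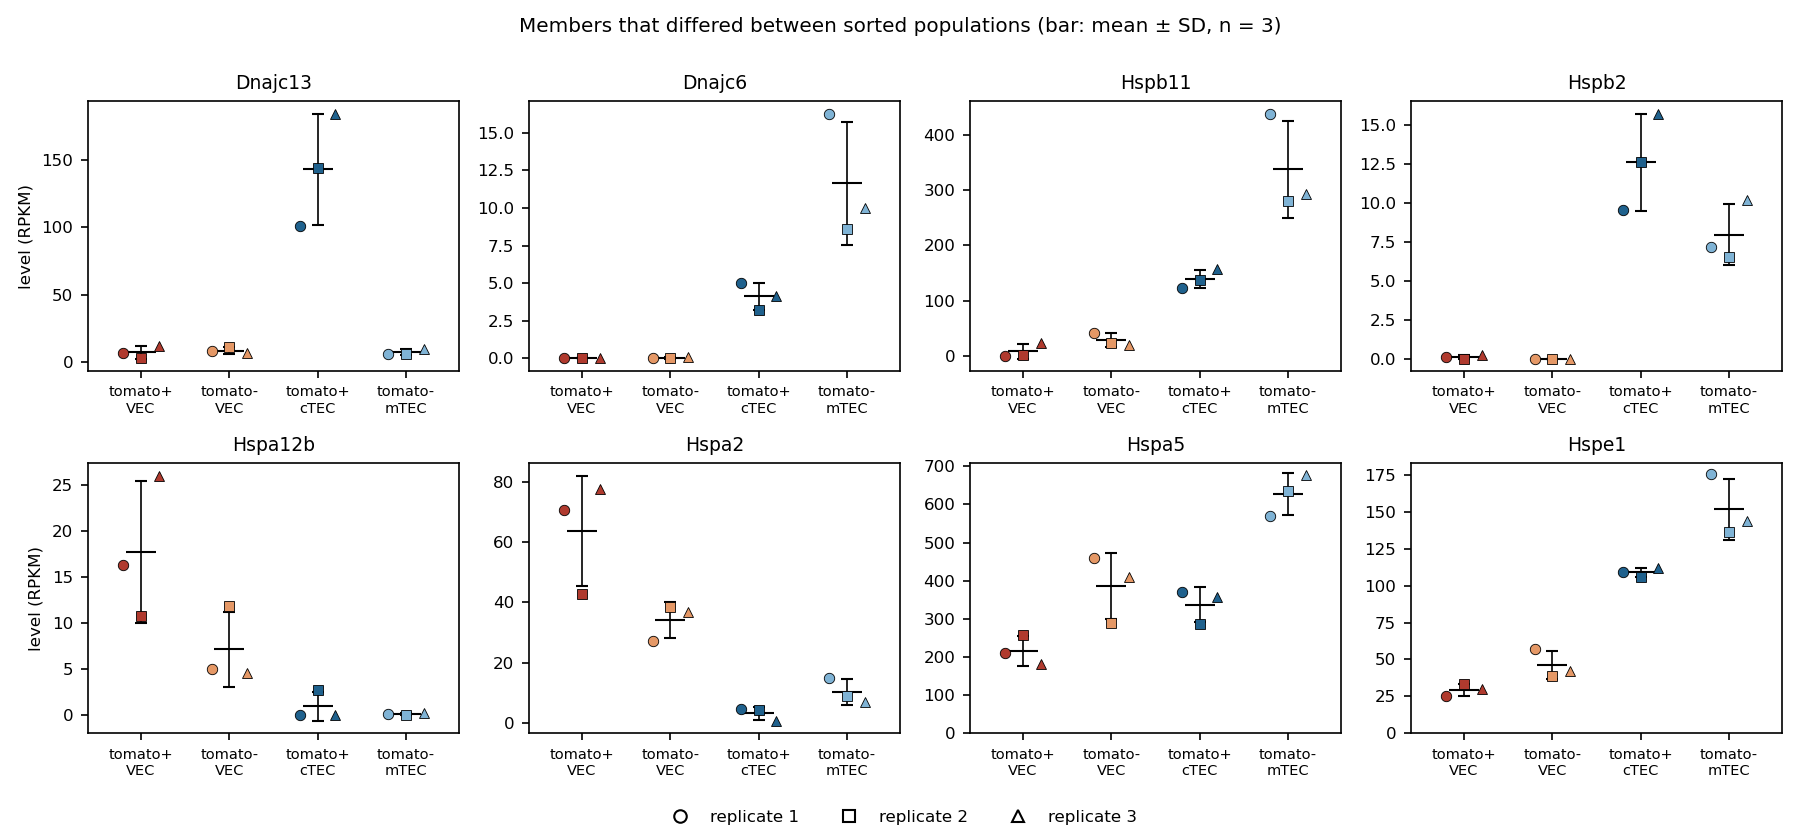
RPKM of 8 members in each library, on linear axes that differ between panels. Points are libraries, and the mark and bar are the mean and SD of 3. Dnajc13 is high in cTEC alone, Dnajc6, Hspb11 and Hspb2 in both epithelial populations, and Hspa12b and Hspa2 in endothelium, while Hspa5 and Hspe1 are highest in mTEC.

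The co-chaperones higher in endothelium were mostly at middling levels. Bag5, an inhibitor of Hsp70 and of Parkin, was 44.6 ± 14.2 RPKM in tomato+ VEC, 27.6 ± 2.44 RPKM in tomato- VEC, 20.8 ± 4.63 RPKM in cTEC and 14.6 ± 3.15 RPKM in mTEC (SD, n = 3). The 6 VEC libraries all exceeded the 6 epithelial ones (log2 difference 1.24 ± 0.24, adjusted p = 0.00172). Bag3 was 37.0, 18.9 and 32.0 RPKM in tomato- VEC and 12.1, 7.08 and 11.0 RPKM in mTEC, and with the tomato+ values above gave 1.41 ± 0.38 (adjusted p = 0.0114), with overlap through the low replicate 3 of tomato+ VEC. The Bag3 call was lost with limma voom (0.0530) and on log2(RPKM + 1) (0.0522). Dnajc8, a J-domain protein of the spliceosome, averaged 157 ± 12.8 RPKM in tomato+ VEC and 83.7 to 103 RPKM in the other populations (log2 difference of VEC against TEC 0.72 ± 0.16, adjusted p = 0.00428).

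Hspb1 was higher in VEC by a log2 difference of 1.47 ± 0.46 (adjusted p = 0.0254), with tomato- VEC overlapping both epithelial groups. The call was lost without tomato- VEC replicate 2 or mTEC replicate 3 (adjusted p 0.0556 to 0.0657). Hspb8 and Dnajc13 were lower in VEC by -2.81 ± 0.69 (adjusted p = 0.00745) and -1.83 ± 0.33 (adjusted p = 0.00102), with tomato+ VEC the low group for Hspb8 and cTEC the high group for Dnajc13. Dnajb1 was 66.6, 71.7 and 58.4 RPKM in tomato+ VEC and 107, 54.2 and 60.4 RPKM in tomato- VEC, against the epithelial values above (log2 difference -0.70 ± 0.23, adjusted p = 0.0306). That call was lost without tomato+ VEC replicate 1 or 3, tomato- VEC replicate 2 or 3, cTEC replicate 2 or 3, or mTEC replicate 2 (adjusted p 0.0506 to 0.104).

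Of the J-domain proteins of the ER, Dnajc1, Dnajc3 and Dnajc10 were called higher in VEC, and Dnajb9, Dnajb11, Dnajb12 and Dnajb14 were not called. Dnajc10, an ER disulfide reductase, averaged 48.9 ± 5.73 RPKM in tomato+ VEC, 40.1 ± 6.50 RPKM in tomato- VEC, 24.1 ± 6.07 RPKM in cTEC and 26.2 ± 2.19 RPKM in mTEC, with no overlap of the lineages (log2 difference 1.05 ± 0.18, adjusted p = 6.85e-04). Dnajc3, an inhibitor of the stress kinase PERK, was 11.1, 14.2 and 14.1 RPKM in mTEC, below the 18.8 to 30.5 RPKM of VEC, while cTEC at 19.6, 25.6 and 19.0 RPKM lay within the VEC range (0.75 ± 0.20, adjusted p = 0.00971), and this call was lost on log2(RPKM + 1) (0.0705). Dnajc1, a J-domain protein of the ER membrane, was 1.30, 1.24 and 1.66 RPKM in mTEC, 5.02, 7.14 and 2.51 RPKM in cTEC, 6.90, 6.55 and 6.42 RPKM in tomato- VEC and 1.33, 9.69 and 5.66 RPKM in tomato+ VEC. The lineages overlapped, with tomato+ VEC replicate 1 at the level of mTEC and cTEC reaching that of tomato- VEC (log2 difference 1.44 ± 0.46, adjusted p = 0.0289). The Dnajc1 call was lost without tomato+ VEC replicate 2, cTEC replicate 1 or 3, or mTEC replicate 1 or 2 (adjusted p 0.0523 to 0.0680), with limma voom (0.0725) and on log2(RPKM + 1) (0.0992). Hspa5 itself was lower in VEC (-0.45 ± 0.15, adjusted p = 0.0385), with cTEC and tomato- VEC overlapping, and Hsp90b1 was lower without overlap (-0.75 ± 0.12, adjusted p = 3.64e-04). The Hspa5 call against the epithelium held without tomato+ VEC replicate 2, tomato- VEC replicate 1 or cTEC replicate 2 and was lost without each of the other 9 libraries (adjusted p 0.0568 to 0.107), with no low-count minimum (0.0776) and with the replicate number as a block (0.0556).

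Dnajc9, a histone chaperone linked to replication, was 25.0 ± 3.64 RPKM in cTEC and 30.4 ± 1.58 RPKM in mTEC, above every VEC library (log2 difference -1.14 ± 0.39, adjusted p = 0.0389). That call held without tomato+ VEC replicate 1, tomato- VEC replicate 1 or tomato- VEC replicate 2 and was lost without each of the other 9 libraries (adjusted p 0.0604 to 0.102) and with no low-count minimum (0.0731). Dnajc14 was barely past the threshold (log2 difference 0.68 ± 0.25, adjusted p = 0.0498). It was not called under any of the 6 other methods (adjusted p 0.0551 to 0.265), nor in 10 of 12 fits that left out a library (adjusted p 0.0509 to 0.0979), all but those without tomato+ VEC replicate 1 or tomato- VEC replicate 2. The exons of Dnajc1 and Dnajc14 overlap genes on the opposite strand in the annotation.

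The contrast of tomato+ with tomato- VEC was set against that of cTEC with mTEC in the same fit. For 3 of the 68 tested members the contrasts differed (4.41%, against 3.08% of all genes tested). All 3 were lower in the VEC contrast than in the epithelial one. Hspb8 fell in tomato+ VEC and was at its highest level in cTEC, with a difference of -7.08 ± 1.43 on the log2 scale (adjusted p = 0.0235). Dnajc13 differed by -4.48 ± 0.67 (adjusted p = 0.00549) and Dnajb4 by -2.66 ± 0.60 (adjusted p = 0.0351), both with their highest levels in cTEC. Dnajb4 averaged 23.9 ± 6.89 RPKM in tomato+ and 41.8 ± 20.3 RPKM in tomato- VEC (log2 difference -0.74 ± 0.42, adjusted p = 0.418). Dnajc13 held without each of the 12 libraries. Hspb8 was lost without cTEC replicate 1 or 3 or any 1 mTEC library (adjusted p 0.0511 to 0.0741). Dnajb4 held without tomato- VEC replicate 1, tomato+ VEC replicate 3 or mTEC replicate 3 and was lost without each of the other 9 libraries (adjusted p 0.0617 to 0.0944).

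The remaining inducible member, Dnaja1, a J-domain partner of Hspa8, varied little. It averaged 99.9 ± 16.0 RPKM in tomato+ VEC, 82.4 ± 16.0 RPKM in tomato- VEC, 93.4 ± 0.651 RPKM in cTEC and 72.4 ± 7.81 RPKM in mTEC and passed no comparison. Hsph1 averaged 26.6 ± 15.5 RPKM in cTEC and 26.0 ± 7.25 RPKM in mTEC against 9.01 ± 6.35 RPKM in tomato+ VEC and 13.4 ± 4.27 RPKM in tomato- VEC, and missed the threshold between the lineages (adjusted p = 0.0780). Dnajb9, an ER J-domain protein of the unfolded protein response, averaged 67.9 ± 26.2 RPKM in tomato+ VEC and 36.8 ± 7.15 RPKM in mTEC and was not called. Dnajc5, a J-domain protein of synaptic vesicles, averaged 11.3 ± 5.71 RPKM in tomato+ VEC and 21.5 ± 2.58 RPKM in tomato- VEC, with no overlap but no call (adjusted p = 0.342). Hspb6, a small heat shock protein known from muscle, spread from 0 to 26.4 RPKM over the 12 libraries without an order of populations.

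The 10 members below the minimum were Dnajb3, Dnajb7, Dnajb8, Dnajc5b, Dnajc5g, Hspa1l and Hspb9, known chiefly from testis, with Dnajc22, Hspb3 and Hspb7. None exceeded 6.23 RPKM in a library. Of the 9 testis-associated members, Hspa2 and Dnajb13 passed the minimum, and Dnajb13 reached 2.92 RPKM.

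The regulators of the heat shock response were measured in the same libraries. Hsf1, the main stress-activated factor, was 19.8, 32.8 and 11.8 RPKM in tomato+ VEC, 25.5, 11.1 and 9.10 RPKM in tomato- VEC, 14.9, 20.5 and 14.4 RPKM in cTEC and 11.2, 7.38 and 9.11 RPKM in mTEC, with overlap between the VEC groups and no call. Hsf2, a second factor, was 25.6, 34.7 and 23.5 RPKM in tomato+ VEC and 7.94, 14.6 and 12.9 RPKM in tomato- VEC, without overlap (log2 difference 1.31 ± 0.34, adjusted p = 0.0811), and was called there by DESeq2. Among 12 further heat shock response genes, edgeR called 0 between the VEC groups, against 1.65% of all genes tested (1 at an unadjusted p under 0.05, 0 with DESeq2 and 0 with limma voom). Between the lineages, 4 of the 12 were lower in VEC (Cryab, Fkbp4, Stip1 and Tcp1, against 21.8% of all genes lower). Stip1, which joins Hsp70 to Hsp90, was lower in VEC by -0.93 ± 0.24 (adjusted p = 0.00985), and Fkbp4, an Hsp90 co-chaperone of steroid receptors, by -1.61 ± 0.29 (adjusted p = 9.19e-04). Serpinh1, the collagen chaperone Hsp47, was higher in VEC (1.61 ± 0.21, adjusted p = 9.76e-05) and in cTEC against mTEC (1.47 ± 0.30, adjusted p = 0.0130). Of the 12 immediate early genes, 9 were higher in VEC than in TEC (against 14.4% of all genes), and 3 in cTEC than in mTEC (against 2.73%). Between tomato+ and tomato- VEC edgeR called 0 of them, against 1.65% of all genes tested (3 at an unadjusted p under 0.05, 0 with DESeq2 and 1 with limma voom). At that share, 0 of 12 says little about either list.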

How the data were processed

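Poly(A) RNA of sorted cells was amplified with the SMARTer Ultra Low kit, per the labels' protocols. Per the submitters' processing notes, the tools include TopHat2 2.0.10 and the build is mm9. Counter, annotation, filters and use of strand were not stated. The deposited table holds a raw read count and an RPKM per gene and library, per the file headers. All 178661 RPKM values tested equalled the count divided by the library total and 1 length per gene (relative tolerance 1e-06). Counts of the 12 libraries were fitted together with edgeR 4.0.16 in R 4.3.3 (filterByExpr with a minimum count of 10, TMM, quasi-likelihood test, 1 term per group, 8 residual degrees of freedom), and p-values were Benjamini-Hochberg adjusted over 14792 genes, with calls under 0.05. Counts of replicates differed by more than counting noise (chi-square per degree of freedom at least 39.4), so none was treated as a duplicate deposit, which does not show that they came from separate animals. Scripts were tested on simulated data. Members, lists and comparisons were chosen with earlier results of these data known. Text names the inducible members, every called member, the 3 most abundant of each class and the 10 most abundant overall. Hsf1, Hsf2, Ccrl1, Cryab and genes of fixed lists are named as context, Ccrl1 after its values were seen. Alternatives were DESeq2 1.42.0, limma 3.58.1 (voom, and trend on log2(RPKM + 1)), no low-count filter, relative log expression scaling, a replicate block, only the 6 libraries compared, and leaving out each library. The result of 1 gene of the heat shock response list is not reported here.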

Additional observations from a re-analysis of the deposited data

Results flagged for a closer look

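For 3 of the 68 tested members the contrast of tomato+ with tomato- VEC differed from that of tomato+ cTEC with tomato- mTEC, by the interaction term of the edgeR fit. That is 4.41%, against 3.08% of all genes tested, so the count itself is near the background. The log2 difference between the contrasts was -7.08 for Hspb8 (adjusted p = 0.0235), -4.48 for Dnajc13 (adjusted p = 0.00549) and -2.66 for Dnajb4 (adjusted p = 0.0351). Hspb8 was lower in all 3 tomato+ than in all 3 tomato- VEC libraries and higher in all 3 cTEC than in all 3 mTEC libraries. The epithelial contrast also compares cortex with medulla, which cannot be told apart from the reporter.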

How the results depend on the processing

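No called result reversed under any setting. Of 600 settings over the 33 called member results, 495 kept the call and 105 lost it, and the cause was not tested. Called members numbered 2 between the VEC groups, and 7 with DESeq2, 1 with limma voom, 0 with the 6 VEC libraries alone (8 at an unadjusted edgeR p under 0.05) and 0 to 6 without single libraries. They numbered 5 between cTEC and mTEC, and 8 with DESeq2, 9 with limma voom, 8 on log2(RPKM + 1), 11 with the 6 epithelial libraries alone and 1 to 5 without single libraries. For the difference between the contrasts they numbered 3, and 6 with DESeq2 and 1 to 5 without single libraries. Between the lineages they numbered 23, and 18 to 24 without single libraries. Scaling by relative log expression moved the median log2 difference of all genes by -0.13 between the lineages. The replicate block gave 3, 4, 24 and 3 calls in the order VEC, epithelium, lineage and difference of contrasts. The share of all genes called under each of these settings is not given here, so these counts are not results about the members. Deviations of same-numbered libraries of different groups correlated at -0.014 to 0.069 over 18 pairs, and those of different numbers at -0.051 to 0.025. The main fit did not treat the replicate numbers as pairs. In 23 of 36 cases a library correlated best, among the 3 of another group, with its own number, a hint from the data and not from the design. With 3 libraries a group and low reads for Hspb2, Dnajc6 and Hspa12b in 1 lineage, their fold sizes are limited by counting.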
